A study of Mus musculus with 15 samples.

Results

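Lyve1, Stab1, Stab2, Mrc1, Tek, Clec4g, Kdr, Flt4 and Pecam1 encode the scavenger and vascular receptors of liver sinusoidal endothelium. The 9 genes were taken by symbol, with every probe set that the array annotation ties to that single symbol, which gave 12 of 45101 probe sets. Of these, 9 probe sets covering 8 genes reached a log2 value of 4, taken here as the floor near background, on at least 3 of 15 arrays. The same filter left 15541 probe sets with 1 gene symbol, covering 9482 genes, in the whole series.

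Liver sinusoidal endothelial cells line the hepatic capillaries, lack a continuous basement membrane, and clear waste molecules from blood through scavenger receptors. Lyve1 and Stab2 bind the matrix polysaccharide hyaluronan, Stab1 and Mrc1 take up modified proteins and glycoproteins, and Clec4g is a sugar-binding lectin of these cells. Tek, also called Tie2, is the receptor for angiopoietins, Kdr is the main signalling receptor for Vegfa, and Flt4 is the receptor for Vegfc and Vegfd. Some of these genes are also active in other cells, among them Mrc1, Stab1 and Lyve1 in certain macrophages.

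Whole-liver RNA was measured on Affymetrix 3' expression arrays at 15 weeks of age in 4 groups. Untreated wild type were C3H/HeOuJ mice with no treatment (3 arrays, numbers 1 to 3). Treated wild type were C3H/HeOuJ mice given DEN, the DNA-damaging liver carcinogen diethylnitrosamine, at 12 weeks (100 mg/kg) and the hepatotoxin CCl4 at 13 and 15 weeks (0.50 ml/kg), and killed 48 hours after the last CCl4 dose (4 arrays, 4 to 7). Treated mutant were C3H/HeJ mice carrying Tlr4P712H, a change in the receptor for bacterial lipopolysaccharide, and given the same DEN and CCl4 (4 arrays, 8 to 11). The antibiotic group were C3H/HeOuJ mice whose water held vancomycin (500 mg/l) plus ampicillin, neomycin and metronidazole (1 g/l each) for 2 weeks from week 10, followed by the same DEN and CCl4 (4 arrays, 12 to 15). Mice were male, except that 1 mutant array has no sex given. No untreated mutant and no antibiotic group without DEN and CCl4 was analysed here, and the mutation and the C3H/HeJ strain cannot be told apart. The labels do not say that arrays of a group came from separate animals, so p-values measure only the spread between these samples.

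The arrays correlated within groups at r of 0.976 to 0.993 over the 15541 kept probe sets. Here and below, all probe sets means all that passed the filter. Between treated and untreated wild type the median difference over all probe sets was 0.09 as deposited and -0.14 with median-centred arrays, and 57.1% and 41.4% of called probe sets were higher. That share moved from 43.8% to 55.8% for mutant against treated wild type, from 36.2% to 53.4% for antibiotics against treated wild type, from 60.1% to 45.3% for mutant against untreated and from 58.2% to 45.3% for antibiotics against untreated. Untreated array 1 stood apart for these receptors. It was the lowest of the 3 untreated arrays for all 9 detected receptor probe sets, beside 38% of all kept probe sets. The median of these 9 was 1.10 below the mean of arrays 2 and 3 (all kept probe sets, -0.01). Results against the untreated group are therefore also given without array 1. For fits that left out an array, the share of all probe sets called is not given. Their receptor counts cannot be set against a general change in calls. The summed log2 level of array 1 was also the lowest of the 3 for pan-endothelial genes (10.11 against 10.78 and 10.83), macrophage genes (9.97 against 10.84 and 11.18) and stellate cell genes (9.77 against 10.58 and 10.51).

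General endothelial genes were read beside the receptors, though their detection in whole liver does not show which cells gave the receptor signal. Of 22 such genes 17 were detected, among them the junction protein Cdh5 and the secreted endothelial protein Egfl7, while Tie1, Sox17, Sox18, Emcn and Rasip1 were not kept. Of 14 other genes typical of liver sinusoids 11 were detected, including Fcgr2b, an Fc receptor, and the coagulation factor F8, while Wnt2, Wnt9b and Gata4 were not kept. Pecam1, an adhesion molecule of endothelial junctions, was under 4 on all 15 arrays (1.65 to 3.43 with its only probe set), so nothing can be read of its change. The second probe sets of Clec4g (1.65 to 2.17) and Flt4 (2.48 to 2.82) were likewise under 4 on all arrays. All Flt4 values below rest on the other probe set, which the annotation gives the Flt4 symbol but no transcript accession, so its identity is less certain than that of the rest.

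DEN and CCl4 in wild type raised 5 of the 8 detected receptors and lowered none, against 34.2% of all tested probe sets called higher (limma, Benjamini-Hochberg adjusted p under 0.05 over all tested probe sets). Lyve1, Stab1, Tek, Mrc1 and Flt4 rose, and Clec4g, Kdr and Stab2 did not pass. The median difference over the 8 genes was 0.81 on the log2 scale, beside 0.09 for all probe sets, and the arrays of both groups did not overlap for 6 genes, beside 64.3% of all probe sets. Without untreated array 1 the count fell to 3, Lyve1, Stab1 and Tek.

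The treated mutant had lower levels than treated wild type for 8 of 8 detected receptors, against 16.1% of all tested probe sets called lower. The median difference was -1.05, beside 0.02 over all probe sets, and no gene had overlapping arrays, beside 29.9% of all probe sets without overlap. The largest differences were in Lyve1, Mrc1 and Tek. The count was 8 under median centring and under quantile normalisation too, with 2102 and 2273 of 15541 probe sets called lower.

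With antibiotics before DEN and CCl4, 1 of 8 receptors was called different from treated wild type, against 12.3% of all tested probe sets called in either direction. That gene was Tek, which was lower. Without untreated array 1, whose removal changes the shared estimate of spread, Mrc1 was called lower as well (-0.44, adjusted p = 0.0464, limma). The median difference was 0.02 (all probe sets, -0.03), and arrays did not overlap for 3 genes, Lyve1, Mrc1 and Tek, beside 17.1% of all probe sets. This comparison and the mutant comparison share the treated wild-type arrays.

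Set directly against the treated mutant, the antibiotic group was higher for 8 of 8 receptors, against 5.62% of all tested probe sets called higher. The median difference was 1.15 (all probe sets, -0.02), and arrays overlapped for no gene, beside 14.5% of all probe sets without overlap. Leaving out mutant array 9 or antibiotic array 14 took the count to 5, with Tek, Clec4g and Kdr no longer called.

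Against untreated wild type, the treated mutant had 1 receptor higher, Lyve1, and 3 lower, Stab2, Mrc1 and Tek, with 51.0% of all tested probe sets called in either direction. Without untreated array 1 Lyve1 was no longer called (0.37, adjusted p = 0.331, limma), and 6 receptors were lower, since Clec4g (-0.56), Kdr (-0.84) and Flt4 (-0.61) then passed as well. The antibiotic group had 3 of 8 receptors higher than untreated wild type, Lyve1, Stab1 and Flt4, against 32.6% of all tested probe sets called higher, and none lower. These 3 were called without untreated array 1 too (1.95, 1.57 and 0.51), and without untreated array 3 the count was 6.

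**Figure D1:**
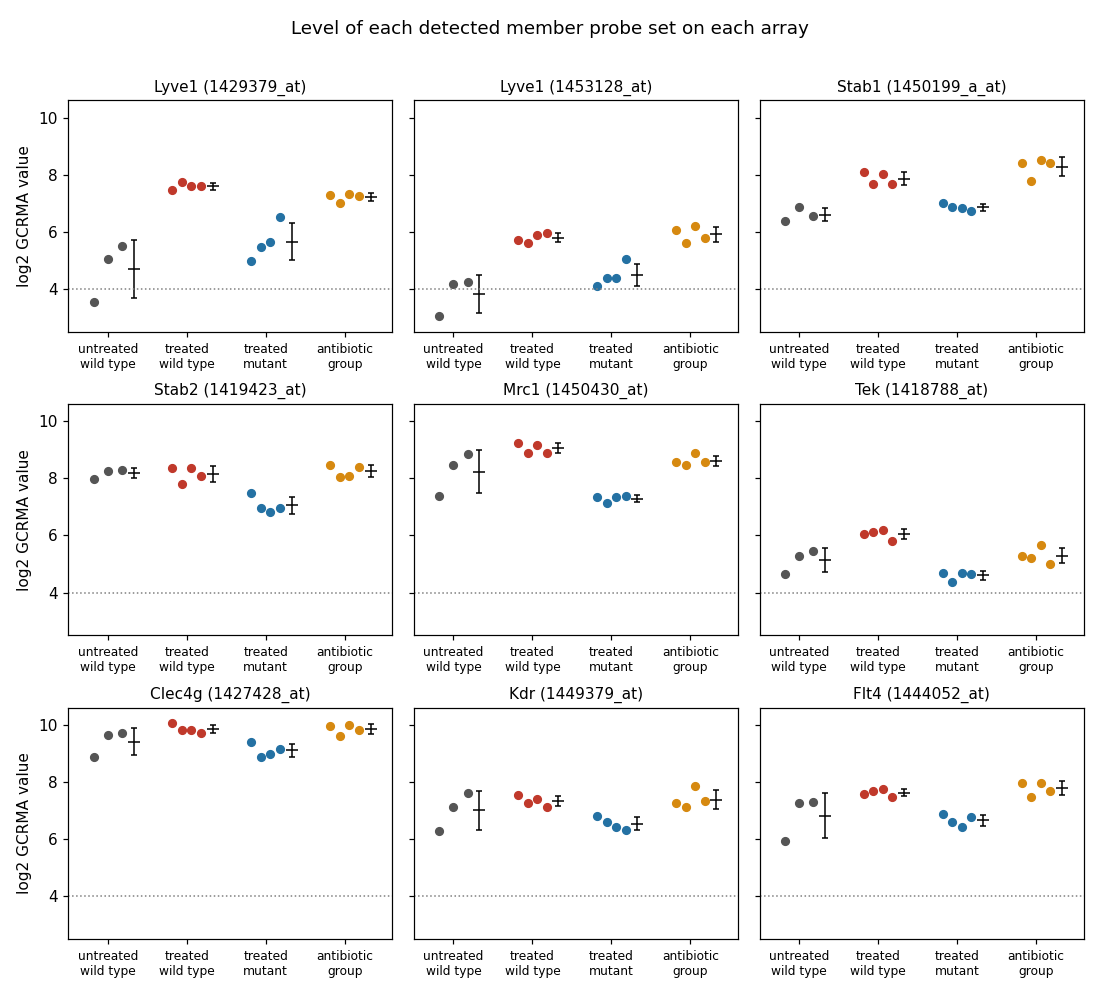
Log2 GCRMA value (y axis) of the 9 detected receptor probe sets on each of 15 arrays by group; points are arrays, the bar beside them is the mean ± SD, and the dotted line is the floor of 4. The 4 mutant arrays lie below the 4 treated wild-type arrays in every panel, and untreated array 1, the left-most point, is the lowest untreated point in every panel.

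Lyve1, the hyaluronan receptor of sinusoidal and lymphatic endothelium, moved most. Its main probe set (1429379_at) read 3.55, 5.04 and 5.52 in untreated wild type and 7.45, 7.75, 7.59 and 7.62 after DEN and CCl4. In the mutant it read 4.98, 5.48, 5.64 and 6.52, and in the antibiotic group 7.29, 7.01, 7.34 and 7.27. All 4 treated wild-type arrays were above all arrays of the other groups, the antibiotic arrays came next, and mutant and untreated arrays overlapped. Lyve1 rose by 2.89 ± 0.38 (SE; adjusted p = 1.36e-05, limma) with treatment, at least 6.71-fold with array 1 set to the floor, and by 2.32 without array 1 (adjusted p = 2.52e-05). In the mutant it was 3.86-fold lower than in treated wild type (-1.95 ± 0.35, adjusted p = 0.000978). The difference between antibiotics and treated wild type was -0.37 (95% interval -1.13 to 0.38, adjusted p = 0.538). Mutant against untreated wild type was at the threshold (0.95 ± 0.38, adjusted p = 0.0498), and the second probe set was not called there (0.66, adjusted p = 0.0506). The second probe set (1453128_at) averaged 3.83 ± 0.66 (SD, n = 3), 5.79 ± 0.16, 4.48 ± 0.40 and 5.91 ± 0.26 (n = 4 each) in the untreated, treated, mutant and antibiotic groups. It rose with treatment and was lower in the mutant as the first did, and gave 0.12 for antibiotics against treated wild type, opposite in sign to the first and also not called.

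Stab1 and Stab2 are the paired stabilin scavenger receptors of the sinusoid, and only the first was called with treatment. Stab1 read 6.39, 6.87 and 6.56 in untreated and 8.09, 7.67, 8.01 and 7.68 in treated wild type. It read 7.0, 6.86, 6.83 and 6.73 in the mutant and 8.42, 7.79, 8.50 and 8.41 with antibiotics. Mutant and untreated arrays overlapped, as did antibiotic and treated wild-type arrays, and the first pair lay below the second. Stab1 rose 2.39-fold with treatment (1.26 ± 0.18, adjusted p = 2.62e-05, limma) and was 2.01-fold lower in the mutant (-1.01 ± 0.16, adjusted p = 0.000453). The antibiotic group differed from treated wild type by 0.42 (95% interval 0.06 to 0.77, adjusted p = 0.112), and by 0.58 without antibiotic array 13 (adjusted p = 0.0145).

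Stab2 read 7.99, 8.26 and 8.30 in untreated and 8.36, 7.80, 8.37 and 8.08 in treated wild type. It read 7.50, 6.96, 6.82 and 6.97 in the mutant and 8.48, 8.04, 8.09 and 8.38 with antibiotics. The mutant arrays were below all others, and the other 3 groups overlapped. The difference of treated from untreated wild type was -0.03 (95% interval -0.43 to 0.36, adjusted p = 0.891, limma). Stab2 was 2.12-fold lower in the mutant than in treated wild type (-1.09 ± 0.17, adjusted p = 0.000356) and 2.17-fold lower than in untreated wild type (-1.12 ± 0.19, adjusted p = 0.000181). Whether the treatment difference of Stab1 differs from that of Stab2 was not tested.

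The promoter windows of both stabilins and of Tek are shown because the stabilins are close relatives with unequal treatment values and because Tek was the one receptor called lower with antibiotics. RefSeq windows on GRCm38.p6, from 250 bases before to 50 bases after the start, were found for 7 of the 9 genes. Stab1 is at chr14:31168592-31168891 on the minus strand, Stab2 at chr10:87007893-87008192 on the minus strand and Tek at chr4:94739039-94739338 on the plus strand. Capitals mark matches on either strand to GGAAG, the core bound by ETS factors, to AGATAA, the motif bound by the GATA family, to TAAACA, a forkhead motif, and to TATAAA, a core promoter element.
Stab1: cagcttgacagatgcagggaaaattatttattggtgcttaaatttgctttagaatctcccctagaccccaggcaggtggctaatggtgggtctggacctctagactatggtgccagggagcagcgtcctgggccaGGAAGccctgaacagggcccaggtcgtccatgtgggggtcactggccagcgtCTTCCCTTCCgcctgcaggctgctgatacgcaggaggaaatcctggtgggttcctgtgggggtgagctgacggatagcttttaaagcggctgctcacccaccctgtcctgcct
Stab2: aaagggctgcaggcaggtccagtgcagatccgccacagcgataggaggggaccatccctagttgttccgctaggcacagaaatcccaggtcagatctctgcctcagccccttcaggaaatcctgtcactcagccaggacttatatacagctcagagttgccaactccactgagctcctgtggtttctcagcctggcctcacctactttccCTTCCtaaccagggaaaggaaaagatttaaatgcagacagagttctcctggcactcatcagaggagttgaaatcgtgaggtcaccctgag
Tek: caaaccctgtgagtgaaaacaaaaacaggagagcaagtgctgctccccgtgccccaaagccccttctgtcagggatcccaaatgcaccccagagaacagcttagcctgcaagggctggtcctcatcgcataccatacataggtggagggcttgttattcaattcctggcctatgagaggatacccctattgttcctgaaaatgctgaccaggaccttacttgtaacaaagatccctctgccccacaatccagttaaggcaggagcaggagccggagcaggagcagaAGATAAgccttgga
Stab1 held 3 GGAAG matches, 2 of them adjoining, Stab2 held 1 and Tek none. Of the 7 windows 6 held GGAAG, beside 71.4% of all 32851 promoter windows of this length. AGATAA was in the Tek window alone, beside 11.2% of all windows, TATAAA in the Clec4g window alone, beside 13.6%, and TAAACA in none, beside 13.4%. The motifs did not overlap each other in the printed windows, and a match describes letters, not binding.

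Mrc1, the macrophage mannose receptor, is also the main endocytic mannose and collagen receptor of sinusoidal endothelium. It read 7.39, 8.45 and 8.86 in untreated and 9.25, 8.90, 9.18 and 8.90 in treated wild type. It read 7.34, 7.13, 7.33 and 7.37 in the mutant and 8.56, 8.46, 8.87 and 8.57 with antibiotics. The mutant arrays were below every array of every other group, and the antibiotic arrays were below the treated wild-type arrays. Mrc1 was 3.39-fold lower in the mutant than in treated wild type (-1.76 ± 0.23, adjusted p = 7.7e-05, limma) and 1.92-fold lower than in untreated wild type (-0.94 ± 0.25, adjusted p = 0.00575). It rose 1.77-fold with treatment (0.82 ± 0.25, adjusted p = 0.0103), and gave 0.40 without array 1 (adjusted p = 0.051). Antibiotics against treated wild type gave -0.44 (95% interval -0.93 to 0.05, adjusted p = 0.227), which was called only without untreated array 1 (adjusted p = 0.0464).

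Clec4g was at 8.88, 9.63 and 9.72 in untreated and 10.06, 9.82, 9.81 and 9.73 in treated wild type. It was at 9.39, 8.89, 8.99 and 9.16 in the mutant, and 9.95, 9.60, 10.00 and 9.82 with antibiotics. Mutant arrays were below treated wild-type and antibiotic arrays and overlapped untreated ones. The treatment difference narrowly missed the threshold (0.45, 95% interval 0.04 to 0.85, adjusted p = 0.0534, limma) and was 0.18 without array 1 (adjusted p = 0.359). It was called without untreated array 2 (0.56, adjusted p = 0.0409) or 3 (0.60, adjusted p = 0.0228), without mutant array 8 (adjusted p = 0.0484), with the filter at 6 (adjusted p = 0.0491) and with a trended and robust variance prior (adjusted p = 0.0408). Clec4g was 1.68-fold lower in the mutant than in treated wild type (-0.75 ± 0.17, adjusted p = 0.00557). Antibiotics against treated wild type gave -0.01 (95% interval -0.38 to 0.36).

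Tek, the angiopoietin receptor, was the sole receptor called in the antibiotic comparison. It read 4.66, 5.28 and 5.46 in untreated and 6.06, 6.12, 6.19 and 5.80 in treated wild type. It read 4.70, 4.37, 4.70 and 4.66 in the mutant and 5.27, 5.22, 5.66 and 5.01 with antibiotics. Treated wild-type arrays were above all others, antibiotic arrays overlapped untreated ones, and mutant arrays were below the antibiotic arrays. Tek rose 1.88-fold with treatment (0.91 ± 0.19, adjusted p = 0.000803, limma; 0.67 without array 1, adjusted p = 0.00544). It was 2.7-fold lower in the mutant (-1.44 ± 0.18, adjusted p = 4.38e-05) and 1.68-fold lower with antibiotics (-0.75 ± 0.18, adjusted p = 0.0138) than in treated wild type. Between the antibiotic group and the mutant Tek differed by 0.68 ± 0.18 (adjusted p = 0.0232).

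Kdr, the Vegfa receptor, was at 6.28, 7.14 and 7.62 in untreated and 7.53, 7.25, 7.39 and 7.13 in treated wild type. It was at 6.82, 6.60, 6.43 and 6.32 in the mutant and 7.25, 7.11, 7.85 and 7.32 with antibiotics. The mutant arrays were below treated wild-type and antibiotic arrays, and untreated arrays spread across all groups. Kdr did not pass with treatment (0.31, 95% interval -0.24 to 0.86, adjusted p = 0.311, limma). Its difference was -0.06 without untreated array 1 (adjusted p = 0.84) and 0.61 without untreated array 3, where it was called (adjusted p = 0.048). Leaving out array 1 thus turned the sign, and leaving out array 3 gave the call. It was 1.72-fold lower in the mutant than in treated wild type (-0.78 ± 0.24, adjusted p = 0.023), but not called without treated array 4 (-0.72, adjusted p = 0.0601) or mutant array 11 (-0.71, adjusted p = 0.0598).

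Flt4, the Vegfc and Vegfd receptor, was at 5.92, 7.25 and 7.30 in untreated and 7.59, 7.67, 7.75 and 7.47 in treated wild type on its detected probe set (1444052_at, the one without a transcript accession). It was at 6.87, 6.59, 6.43 and 6.77 in the mutant and 7.98, 7.48, 7.96 and 7.70 with antibiotics. Mutant arrays were below treated wild-type arrays and within the untreated range. Flt4 rose 1.74-fold with treatment (0.80 ± 0.26, adjusted p = 0.0166, limma), but 0.35 without array 1 (adjusted p = 0.0917) and 0.57 after median centring (adjusted p = 0.0666) did not pass. It was 1.93-fold lower in the mutant than in treated wild type (-0.95 ± 0.24, adjusted p = 0.00917). Antibiotics against treated wild type gave 0.16 (95% interval -0.35 to 0.68).

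**Figure D2:**
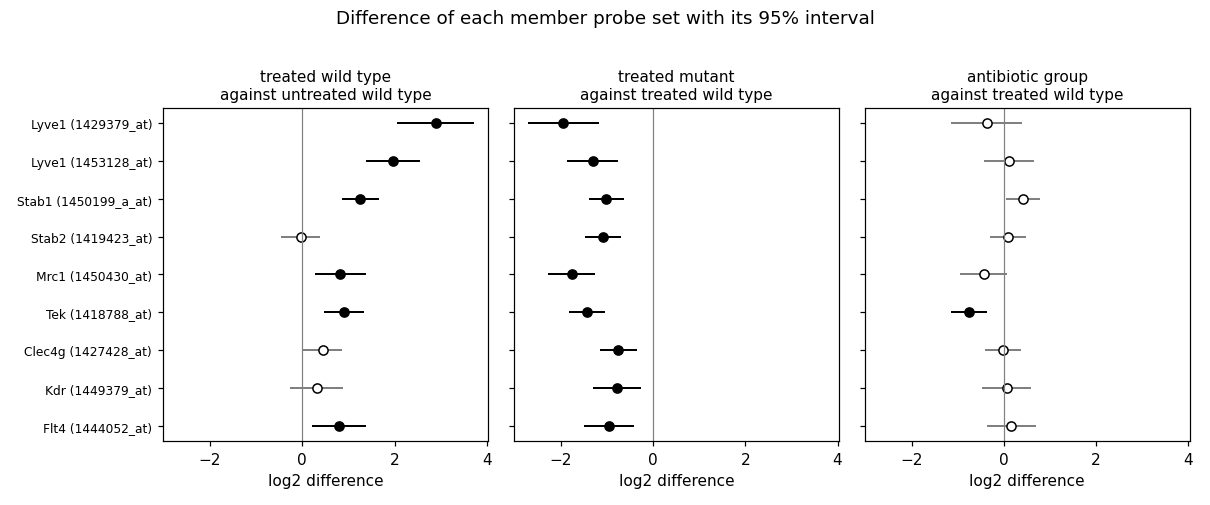
Log2 difference (x axis) of each detected receptor probe set in 3 comparisons; points are limma estimates, lines are 95% intervals, and filled points passed an adjusted p under 0.05. All 9 points are filled and below 0 for mutant against treated wild type, and 1 point, Tek, is filled for antibiotics.

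Hyaluronan genes other than the receptors were followed through 11 genes, of which 4 were detected, and the synthases Has1, Has2 and Has3 were not kept. With treatment 3 rose, namely the hyaluronan-mediated motility receptor Hmmr (at least 38.3-fold, a lower bound with values under 4 set to 4, as in each such fold below), the hyaluronan link protein Hapln1 (at least 6.19-fold) and the cell-surface protein Cemip2 (3.61-fold). Hmmr (-3.31, adjusted p = 0.00197, limma) and Hapln1 (at least 5.57-fold, adjusted p = 0.000466) were lower in the mutant than in treated wild type. With antibiotics Hmmr (-2.69) and Hapln1 (at least 4.34-fold) were lower and the hyaluronidase Hyal2 (0.86) was higher. Hmmr averaged 2.45 in untreated wild type, under the floor, and whether its differences bear on hyaluronan was not tested.

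Of 13 detected scavenger and mannose receptors outside the 9 genes, 7 rose and 2 fell with treatment. Among them were Cd68 (at least 39.2-fold), the hyaluronan receptor Cd44 (at least 27.4-fold) and the fatty acid translocase Cd36 (at least 23.5-fold). In the mutant 6 were lower than in treated wild type and 2 higher, among them Cd163 (at least 9.4-fold), Marco (at least 8.23-fold) and Cd36 (-1.62), each without overlap. Antibiotics gave 2 higher and 3 lower, among them Cd163 (-1.19), Msr1 (-0.84) and Scara5 (0.85). Cd68, Cd163 and Marco are also in the macrophage list.

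The ligands and partners of Kdr, Flt4 and Tek moved in both directions. Of 8 detected genes, 1 rose and 1 fell with treatment. Vegfa, the ligand of Kdr, fell from 9.50 ± 0.05 (SD, n = 3) to 8.40 ± 0.13 (n = 4; difference -1.10, adjusted p = 4.74e-06, limma), and Vegfc, a ligand of Flt4, rose by 0.59 (adjusted p = 0.00775). In the mutant Vegfa was at 8.94 ± 0.15, higher than in treated wild type by 0.54 (adjusted p = 0.00399), where Kdr was lower by 0.78. Vegfd was also higher in the mutant (0.70, adjusted p = 0.0334), and Vegfc (-0.53), the coreceptor Nrp2 (-1.22) and Ptprb (-0.84), a phosphatase that acts on Tek, were lower. Vegfa was the 1 gene of this list called with antibiotics (0.41, adjusted p = 0.0374). The angiopoietin Angpt1 (1.69 to 2.32), the VEGF receptor Flt1 (3.0 to 3.80 by its highest probe set) and Tie1 were not kept, and Angpt2 was not called in these 3 comparisons.

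Other sinusoidal genes were mostly higher after treatment and lower in the mutant. Of 11 detected, 6 rose and 1 fell with treatment, including Fcgr2b (1.08), the chemokine scavenger Gpr182 (at least 1.39-fold) and, as the one that fell, the neonatal Fc receptor Fcgrt (-1.26). In the mutant 10 of 11 were lower than in treated wild type, among them the semaphorin receptor Plxnc1 (-1.58), Oit3 (-1.36) and the Wnt enhancer Rspo3 (at least 2.36-fold), and Fcgrt gave 0.32 (adjusted p = 0.34, limma). With antibiotics Fcgrt was higher (0.84, adjusted p = 0.0312) and the other 10 were not called. Whether the Fcgrt values stem from sinusoidal endothelium was not tested.

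General endothelial genes rose more often than they fell with treatment and were mostly lower in the mutant. Of 17 detected, 9 rose and 1 fell with treatment, 13 were lower in the mutant and none higher, and 4 were lower with antibiotics. Cd93, a lectin-like membrane protein of endothelium and myeloid cells, rose at least 19.4-fold with treatment, was 6.23-fold lower in the mutant and 1.93-fold lower with antibiotics. Ecscr and Adgrl4 also rose with treatment (at least 3.88-fold and 2.24-fold) and were lower in the mutant (at least 3.43-fold and 2.24-fold) and with antibiotics (-0.83 and -0.74). Of 7 detected genes of capillary or activated endothelium 6 rose with treatment, including the adhesion molecule Vcam1 (3.34), thrombomodulin Thbd (at least 3.66-fold) and the diaphragm protein Plvap (2.11). Vcam1 (-2.03), Thbd (at least 3.32-fold) and Plvap (-1.62) were lower in the mutant, 4 of the 7 in all, and 0 of 7 were called with antibiotics by limma. The 6 that rose include Icam1 and Lrg1, the latter at 10.86 in untreated and 11.97 in treated wild type. Whether these and Vcam1 stem from endothelium was not tested.

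Genes of other liver cells moved in the same samples. The summed log2 level of 12 detected of 13 macrophage genes was 9.97 to 11.18 in untreated, 12.57 to 13.09 in treated wild type, 10.18 to 10.54 in the mutant and 11.47 to 12.37 with antibiotics. Of these 12 genes 10 rose with treatment, 11 were lower in the mutant and 10 were lower with antibiotics. The Kupffer cell genes Clec4f and Vsig4 averaged 3.13 and 3.77 in the mutant, under the floor, and Timd4 was under it on all arrays of every group. Cd68 was the 1 gene of the 12 not called between the mutant and treated wild type. It averaged 2.86 in untreated and 9.29 in treated wild type, 9.32 in the mutant and 10.15 with antibiotics. The sum of 6 detected of 7 stellate cell genes was 9.77 to 10.58, 11.89 to 12.00, 10.39 to 10.64 and 11.49 to 11.75 in the same order, with 6 of 6 higher after treatment, 6 lower in the mutant and 3 lower with antibiotics. Colec11, the highest of them in untreated (9.78) and mutant (9.24), weighs heavily in these sums. Singly, the mutant had 3 genes above untreated wild type, Acta2 (2.99), Pdgfrb (0.97) and Col1a1 (at least 1.82-fold), and 2 below, Colec11 and Hgf. Hepatocyte genes summed to 16.42 to 16.69 over all arrays, and none of 5 was called in any comparison by limma. Most of that sum came from Alb, Ttr and Apoa1, with group means of 14.65 to 14.81. Whether values this high still follow the amount of RNA was not tested. Of 3 detected genes on the lymphatic endothelial list, Reln and Pdpn rose with treatment, Reln was lower in the mutant and Pdpn with antibiotics. Prox1 was not called, and Mmrn1 was under the floor on all arrays. Pdpn averaged 3.29 in untreated and 4.51 in treated wild type, near the floor. Whether Reln and Prox1 stem from lymphatic endothelium was not tested, so these values cannot be read as a change of that endothelium. Of the platelet list only Pf4 was detected, which rose with treatment and was lower in the mutant and with antibiotics. The other 5 genes of that list were under the floor on all arrays, so no change of platelets can be read from Pf4. In whole liver, fewer cells of a type and less RNA per cell cannot be told apart, and the part of these other cells in the receptor differences was not tested.

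**Figure D3:**
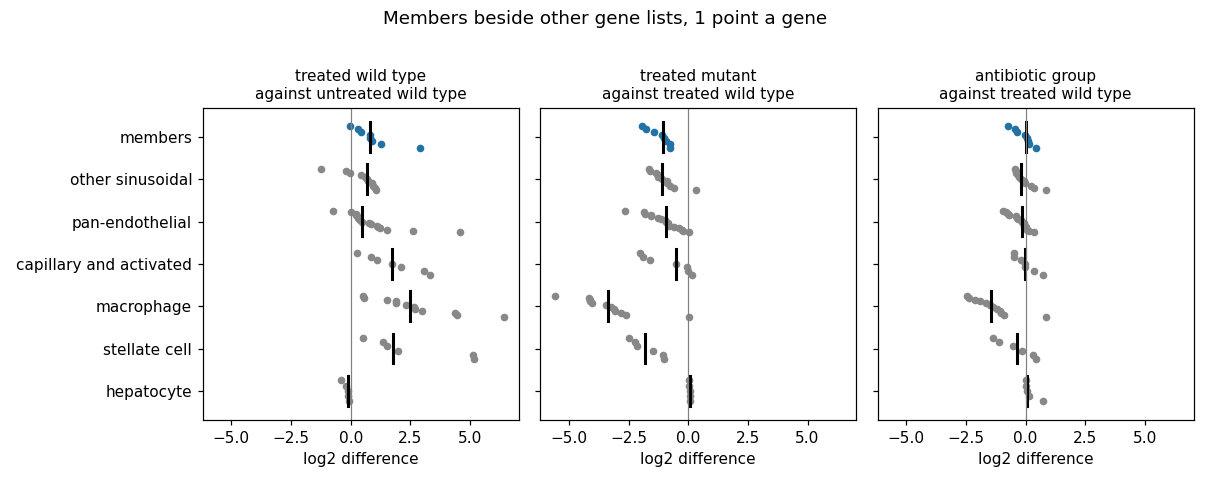
Log2 difference (x axis) of each detected gene, 1 point a gene, for the 8 receptors and 6 other gene lists (y axis) in 3 comparisons, with a bar at each list's median. The receptor medians are 0.81, -1.05 and 0.02, and the macrophage medians 2.49, -3.36 and -1.44.

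Receptor levels were next expressed relative to the mean of the 17 detected pan-endothelial genes of the same array, which was 5.19 ± 0.34 (SD, n = 3) in untreated, 6.10 ± 0.12 in treated wild type, 5.06 ± 0.12 in the mutant and 5.84 ± 0.11 with antibiotics (n = 4 each). On this scale Lyve1 went from -0.49 ± 0.69 to 1.51 ± 0.23 with treatment (1.99), and Stab1 from 1.41 to 1.77 (0.36), both without overlap. Stab2 (-0.93), Kdr (-0.59) and Clec4g (-0.45) went the other way, also without overlap, and Tek (0.01), Mrc1 (-0.08) and Flt4 (-0.11) overlapped. Without untreated array 1 Lyve1 (1.61) and Stab1 (0.44) were higher and Stab2 (-0.84), Kdr (-0.77), Clec4g (-0.53), Flt4 (-0.36) and Mrc1 (-0.31) lower, each without overlap. With values under 4 set to 4, which raises the low pan-endothelial genes, Kdr (-0.46) and Clec4g (-0.32) overlapped. Relative to Cdh5 alone Stab1 overlapped (0.17). Lyve1 and Stab2 kept their direction without overlap in all 3 of these alternatives. Leaving out array 1 adds little to that, since only arrays 2 and 3 then face 4 treated arrays. The exact permutation p of Lyve1 and Stab2 was 0.133 there, the smallest that 2 against 4 arrays allows. The 17 averaged genes include Cd93 and Ecscr, which rose by 4.57 and 2.61 with treatment and so raise the reference, and a mean of the others was not tried.

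In the mutant, Stab1 (0.03), Stab2 (-0.05), Flt4 (0.09), Clec4g (0.29) and Kdr (0.25) overlapped treated wild type relative to the pan-endothelial mean. With values under 4 set to 4 these were -0.10, -0.18, -0.05, 0.16 and 0.12, and relative to Cdh5 alone 0.11, 0.04, 0.17, 0.38 and 0.34, so the sign for Stab1, Stab2 and Flt4 depended on the reference. Mrc1 was lower without overlap (-0.72), and Lyve1 (-0.91) and Tek (-0.40) were lower with overlapping arrays, though Tek (-0.53) did not overlap with values under 4 set to 4. With antibiotics Tek was lower (-0.50) and Stab1 (0.67), Flt4 (0.42), Kdr (0.31) and Clec4g (0.25) were higher, each without overlap, but Tek (-0.45) and Kdr (0.36) overlapped relative to Cdh5 alone. None of the 24 relative differences passed the Benjamini-Hochberg adjustment (exact two-sided permutation test, lowest adjusted p = 0.105). The smallest p the design allows is 0.0571 for 3 against 4 arrays and 0.0286 for 4 against 4, so these values are a description.

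**Figure D4:**
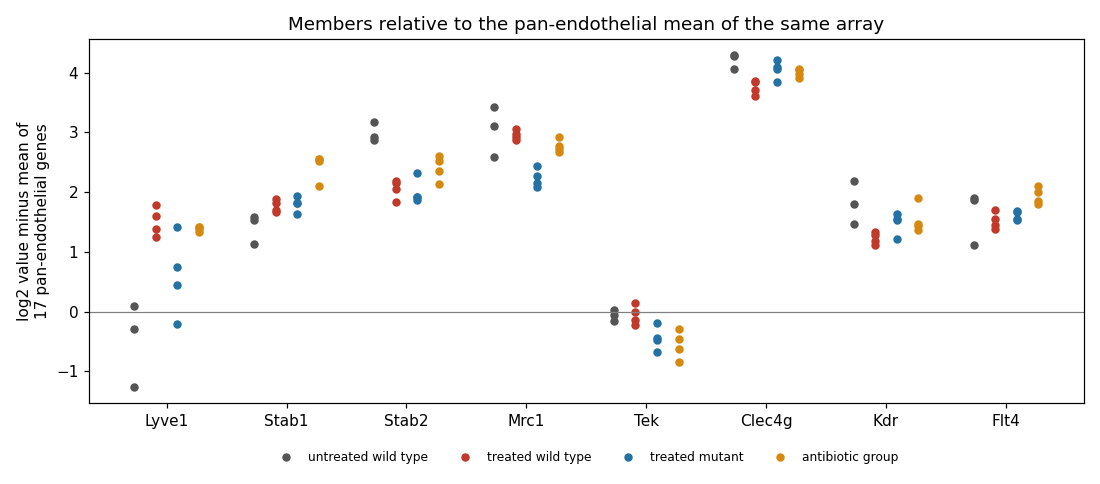
Log2 value minus the mean of 17 pan-endothelial genes on the same array (y axis) for each of the 8 detected receptors (x axis); each point is 1 array, coloured by group. On average Lyve1 is lowest in untreated arrays, Stab2 and Clec4g are lower in treated than in untreated wild type, and Mrc1 is lowest in the mutant.

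The genes whose levels were most like each receptor over the 15 arrays were listed as a description, since all points share the group differences. Lyve1 was closest to Tmem47 (Pearson r = 0.99; 0.92 after subtracting group means), then Marcks (0.96) and Rgs2 (0.95). Mrc1 was closest to the macrophage growth factor receptor Csf1r (0.97; 0.89 within groups), then Mylip and Igfbp7 (0.95 each). Tek was closest to Wfdc17 (0.96), Cd5l (0.95) and Adgre1 (0.95), the last pair being in the macrophage list. Clec4g was closest to the proteoglycan Dcn (0.96; 0.98 within groups), Gdf2 (0.96) and Aqp1 (0.95). Stab1 was closest to Tnfrsf21, Plvap and Ifitm1 (0.94 each), Stab2 to Vps41 (0.93), Copz2 and Rbks (0.92 each), Kdr to Clec4g (0.92), Gdf2 and Prelp (0.90 each), and Flt4 to Abcc9, Septin4 and Dcn (0.96 each).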

How the data were processed

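The deposited values are log2 GCRMA summaries per probe set, background corrected and normalised by the authors, per the submitters' processing notes, which give no GCRMA version. They were used as deposited. The array gives no molecule counts, so precision rests on the number of arrays and on signal above background. Probe sets were named through the platform annotation and RefSeq names (GRCm38.p6). Probe sets with 1 symbol and a log2 value of at least 4 on at least 3 arrays were tested with limma (3.58.1, under R 4.3.3), which was fitted to the means of 4 groups over 15 arrays (11 residual degrees of freedom) and Benjamini-Hochberg adjustment within each comparison. The probe set with the highest mean stood for its gene. Folds are higher over lower, with values under 4 set to 4 in a lower bound. The fit was tested on simulated data. Named genes were the 9 receptors, up to 3 called genes without overlap per list and comparison, defining markers, and the 3 most correlated genes per receptor. Members and lists were chosen with earlier results of these data known. A label giving other ages and a liver resection contradicts the rest and was not used. The alternatives tried were median centring, quantile normalisation, the floor, the filter, 1 probe set a gene, the 2 groups alone, another variance prior, array weights and leaving out each array.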

Additional observations from a re-analysis of the deposited data

Results flagged for a closer look

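Among 27 sets of 4 arrays of a detected receptor probe set, 2 held an array far from the other 3, where chance gives about 1 in 20. Stab1 on antibiotic array 13 was 7.79, below the other antibiotic arrays at 8.41 to 8.50. Tek on mutant array 9 was 4.37, below the other mutant arrays at 4.66 to 4.70. Without array 13 Stab1 was called higher with antibiotics than in treated wild type (0.58, adjusted p = 0.0145, limma). Without array 9 Tek was no longer called between the antibiotic group and the mutant (0.61, adjusted p = 0.0724) or between the mutant and untreated wild type (-0.45, adjusted p = 0.0796).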

How the results depend on the processing

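No difference of a receptor probe set changed sign with its call: of 1284 alternative values 1219 kept their side of the threshold, 40 lost the call and 25 gained it. Leaving out 1 array at a time, the number of receptors called was 3 to 7 for treated against untreated wild type, 7 to 8 for the mutant and 1 to 2 for antibiotics against treated wild type, 2 to 6 for the mutant and 3 to 6 for antibiotics against untreated wild type, and 5 to 8 for antibiotics against the mutant. The low of 3 was without untreated array 1, the 2 without untreated array 1 or antibiotic array 13, the low of 2 without untreated array 2 or mutant array 9, the high of 6 for antibiotics without untreated array 3, and the low of 5 without mutant array 9 or antibiotic array 14. No share of all probe sets is given beside these counts. Array weights gave 2 receptors for antibiotics against treated wild type (Tek lower, Stab1 higher, 0.53), with 2678 probe sets called in all. Fitting the 2 groups alone gave 2 for mutant against untreated, without Lyve1 and Tek, where all called probe sets went from 7933 to 7668. It took them from 1915 to 1259 for antibiotics against treated wild type and from 1626 to 855 against the mutant. The higher Lyve1 of the mutant against untreated passed in few alternatives. The causes were not tested. No paired analysis was possible because array numbers are not shared between groups. Pecam1 and the second Clec4g and Flt4 probe sets lie near background and give no difference.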

Other observations

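The 28 pairs of detected receptors correlated over the 15 arrays at a Pearson r of 0.33 to 0.95 (median 0.77), and at -0.03 to 0.90 (median 0.61) after subtracting group means. The highest pair was Clec4g with Flt4 (0.95; 0.90 within groups), and Mrc1 with Kdr reached 0.89 within groups. The lowest was Lyve1 with Stab2 (0.33; -0.03 within groups), although both proteins bind hyaluronan. Lyve1 and Stab1 correlated at 0.83 over all arrays and 0.12 within groups. These are descriptions over 15 arrays that share their group differences, with no test.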
